A study of Mus musculus with 4 samples.

Results

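Elastin and the microfibril and fibulin proteins that organise it were followed in stromal vascular cells of mouse subcutaneous fat that had been separated by Mmp3, a secreted matrix-cutting protease, into a positive and a negative group. The 10 genes were chosen by name as genes of elastic fibre and microfibril proteins: Eln, Fbn1, Fbn2, Mfap2, Mfap4, Mfap5, Fbln1, Fbln2, Fbln5 and Efemp2. All 10 were found among the 35580 genes of the annotation, and 9 of them, all but Mfap2, passed the filter on low counts that left 14185 genes for testing. The stromal vascular fraction is what remains of adipose tissue once the adipocytes are removed, and it holds fibroblast-like stromal cells, adipocyte progenitors, mural, endothelial and immune cells. Both groups came from wild-type C57BL/6 mice, and each had 2 libraries, numbered 1 and 2. The labels give no age, sex or treatment, and nothing in them says that the numbered libraries are separate animals. The p-values therefore measure the spread between these samples alone, and that spread may be technical. Apart from a reagent code, the method of separation is not given in the sources used here.

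An elastic fibre is a core of cross-linked elastin laid on a scaffold of microfibrils. Microfibrils are polymers of fibrillin that carry small microfibril-associated glycoproteins and bind latent TGF-beta, while fibulins bridge elastin, fibrillin and the lysyl oxidases that cross-link elastin. In fat these proteins belong to the matrix laid down by stromal fibroblasts, and elastin is also a main product of vascular smooth muscle.

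The libraries held 17693755 to 20286221 estimated counts, and at least 10 counts were found for 12691 to 14372 genes. Mmp3 itself stood at 106 and 131 CPM in the negative group and at 4161 and 3409 CPM in the positive group, so both groups matched their labels. CPM are counts scaled to a library of common size after TMM normalisation. Fibroblast markers were abundant in every library, with sums over 10 genes of 21178 and 30554 CPM in the negative group and 29460 and 37177 CPM in the positive group. Of 6 adipocyte markers, Lep and Cidec had 0 counts in all 4 libraries, and the list summed to between 9.06 and 20.9 CPM.

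None of the 9 tested genes passed the threshold of an adjusted p under 0.05 in edgeR's quasi-likelihood test (0 of 9, adjusted p between 0.480 and 0.999). Among all tested genes the share that passed was 0.0211%. At an unadjusted p under 0.05 there were 2 of the 9, Eln and Efemp2, and the share among all genes was 8.87%. The DESeq2 Wald test called Efemp2 higher and Eln lower, against 5.46% of all genes called higher and 4.18% called lower by that test, and limma on log2(TPM + 1) called 0. In CPM, 4 of the 9 genes (Fbn1, Mfap5, Fbln2 and Efemp2) were higher in both Mmp3-positive libraries than in either Mmp3-negative library, as were 22.5% of all tested genes. In 3 of the 9 (Eln, Fbln5 and Mfap4) both Mmp3-positive libraries were the lower ones, as in 17.3% of all tested genes. The median log2 fold change over the 9 genes was -0.18, beside 0.02 over all tested genes, and single values ran from -2.41 for Mfap4 to 0.70 for Efemp2.

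**Figure D1:**
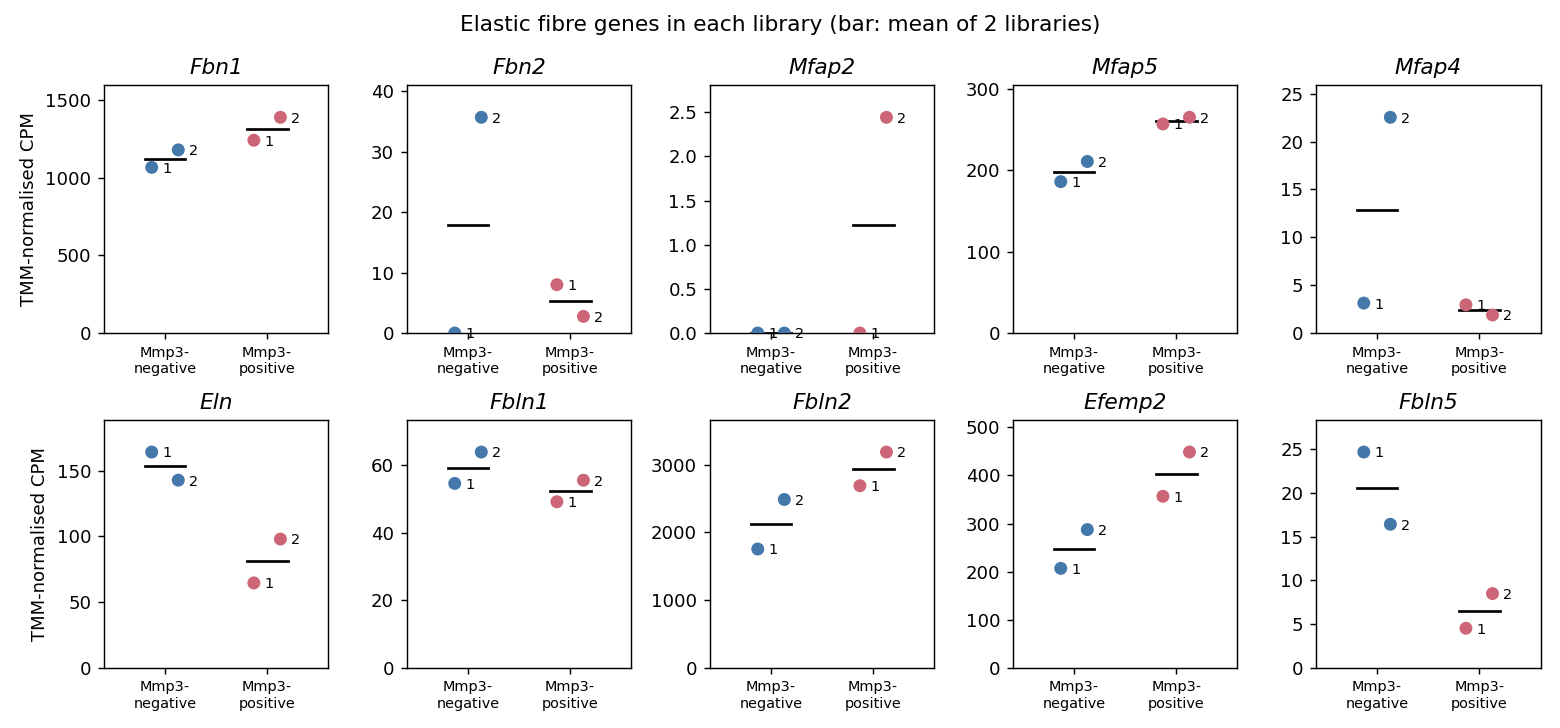
TMM-normalised CPM of the 10 genes (vertical axes from 0, a scale for each gene) in each library, with the replicate number beside each point and a bar for the mean of 2 libraries. Fbn1, Mfap5, Fbln2 and Efemp2 lay higher in both Mmp3-positive libraries, Eln and Fbln5 lay lower in both, and Fbn2 and Mfap4 were high in Mmp3-negative replicate 2 alone.

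Fibrillins form the backbone of the microfibril. Fbn1 (ENSMUSG00000027204, GRCm38 chromosome 2, 125300594 to 125507993, minus strand), the fibrillin of adult tissue, stood at 1066 and 1179 CPM in the negative group and at 1241 and 1388 CPM in the positive group. The groups did not overlap, but the distance between them was small. The mean was 1122 ± 79.6 CPM against 1315 ± 104 CPM (SD, n = 2), a log2 fold change of 0.23 with a standard error of 0.14 (edgeR adjusted p = 0.848). The antisense gene Gm9913 overlaps 2793 bases near the start of Fbn1 and held 342 to 717 counts, against 19761 to 27269 for Fbn1. The overlap is between whole gene spans, introns included. The strand setting of the counting is not given in the sources used here, and mixing of reads between the pair was not tested.

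Fbn2 (ENSMUSG00000024598, chromosome 18, 58008623 to 58210487, minus strand), the fibrillin best known from development, was low and uneven. It had 0 counts in Mmp3-negative replicate 1 and 619 counts (35.7 CPM) in replicate 2. The Mmp3-positive libraries had 152 and 54 counts, so they lay between the Mmp3-negative ones. The log2 fold change was -1.73 with a standard error of 2.42 (edgeR adjusted p = 0.999), and without Mmp3-negative replicate 2 it was 9.68 with no call (edgeR adjusted p = 0.221). Fbn2 passed the filter on low counts through these uneven libraries.

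Mfap2 and Mfap5 encode the microfibril-associated glycoproteins MAGP-1 and MAGP-2, which bind fibrillin. Only Mfap5 was well measured. Mfap5 (ENSMUSG00000030116, chromosome 6, 122505845 to 122529290, plus strand) stood at 186 and 211 CPM in the Mmp3-negative and at 257 and 265 CPM in the Mmp3-positive libraries. The positive pair was close together and above the negative pair. The log2 fold change was 0.40 with a standard error of 0.17 (edgeR adjusted p = 0.611). Mfap2 (ENSMUSG00000060572, chromosome 4, 141010418 to 141015984, plus strand) had 0 counts in 3 libraries and 48 counts (2.44 CPM) in Mmp3-positive replicate 2. It did not pass the filter on low counts, was not called where it was fitted without that filter (edgeR adjusted p = 0.782), and no fold is given against a group at 0.

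Mfap4 (ENSMUSG00000042436, chromosome 11, 61485431 to 61488900, plus strand), a fibrinogen-domain protein that binds elastin and fibrillin, was also set by a single library. It stood at 3.13 and 22.5 CPM in the Mmp3-negative and at 2.95 and 1.88 CPM in the Mmp3-positive libraries. Mmp3-negative replicate 1 was barely above the Mmp3-positive libraries. The log2 fold change of -2.41 with a standard error of 1.58 (edgeR adjusted p = 0.863) became -0.37 without Mmp3-negative replicate 2 (edgeR adjusted p = 0.954). By limma on log2(TPM + 1) it was 0.20, where the median of all genes was 0.31. With coding transcripts alone it was -3.14 with no call. All 37 counts in Mmp3-positive replicate 2 went to Mfap4-204, a non-coding transcript of 348 bases, at 11.9 TPM. The last 89 bases of Mfap4 overlap Mapk7 on the other strand, which held 1734 to 2522 counts, against 37 to 391 for Mfap4.

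Eln (ENSMUSG00000029675, chromosome 5, 134702593 to 134747323, minus strand), which encodes tropoelastin, the soluble building block of the elastic core, was lower in both Mmp3-positive libraries. It stood at 164 and 143 CPM in the negative group and at 64.6 and 98.0 CPM in the positive group. The groups did not overlap, and on the log2 scale the libraries of the positive pair differed by 0.60. The mean was 153 ± 15.1 CPM against 81.3 ± 23.6 CPM (SD, n = 2), a log2 fold change of -0.92 with a standard error of 0.28. It did not pass in edgeR (adjusted p = 0.480). DESeq2 gave an adjusted p of 0.00970, and over all alternatives the adjusted p ran from 0.00970 to 1 and the log2 fold change from -1.25 to -0.65.

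Fibulins are a family of secreted proteins with repeated EGF-like modules. Fbln2 (ENSMUSG00000064080, chromosome 6, 91212455 to 91272540, plus strand), which encodes fibulin-2, a partner of fibrillin and elastin, was the most abundant of the 10 genes in every library. It stood at 1754 and 2485 CPM in the Mmp3-negative and at 2688 and 3186 CPM in the Mmp3-positive libraries. The groups did not overlap, although Mmp3-negative replicate 2 lay nearer to the Mmp3-positive libraries than to its own pair. The mean was 2119 ± 517 CPM against 2937 ± 352 CPM (SD, n = 2), a log2 fold change of 0.47 with a standard error of 0.21 (edgeR adjusted p = 0.612). Without Mmp3-negative replicate 2 the log2 fold change was 0.75 and the gene was called higher (edgeR adjusted p = 0.0263). It was then the only gene called of the 10, all of which were tested there, against 1.45% of all genes called higher in that fit. Without Mmp3-negative replicate 1 it was 0.24 with no call (edgeR adjusted p = 0.419). Over all alternatives the log2 fold change of Fbln2 ran from 0.24 to 0.75 and the adjusted p from 0.0263 to 0.9999.

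Efemp2 (ENSMUSG00000024909, chromosome 19, 5473954 to 5482517, plus strand) encodes fibulin-4, which brings lysyl oxidase to tropoelastin. It stood at 207 and 287 CPM in the Mmp3-negative and at 357 and 449 CPM in the Mmp3-positive libraries, with no overlap. The mean was 247 ± 57.0 CPM against 403 ± 65.1 CPM (SD, n = 2), a 1.63-fold ratio. The log2 fold change was 0.70 with a standard error of 0.23 (edgeR adjusted p = 0.480). DESeq2 gave an adjusted p of 0.0278, and over all alternatives the adjusted p ran from 0.0278 to 0.9999 and the log2 fold change from 0.48 to 0.97. Its last 173 bases overlap Mus81 on the other strand, which held 691 to 1131 counts, against 3833 to 8814 for Efemp2.

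Fbln5 (ENSMUSG00000021186, chromosome 12, 101746565 to 101819055, minus strand) encodes fibulin-5, which binds integrins and guides elastin onto microfibrils. It stood at 24.7 and 16.4 CPM in the Mmp3-negative and at 4.53 and 8.50 CPM in the Mmp3-positive libraries. The groups did not overlap, with 458 and 285 counts against 86 and 167 counts. The log2 fold change was -1.66 with a standard error of 0.93 (edgeR adjusted p = 0.780), and it stayed below 0 in all alternatives (-3.13 to -1.07). Part of these counts went to a retained-intron transcript, which held all 167 counts in Mmp3-positive replicate 2 and 302 of the 458 in Mmp3-negative replicate 1.

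Fbln1 (ENSMUSG00000006369, chromosome 15, 85205949 to 85286535, plus strand), which encodes fibulin-1 of basement membranes and elastic fibres, overlapped between the groups. It stood at 54.6 and 63.9 CPM in the Mmp3-negative and at 49.2 and 55.6 CPM in the Mmp3-positive libraries. The log2 fold change was -0.18 with a standard error of 0.30 (edgeR adjusted p = 0.999), and by limma on log2(TPM + 1), where all genes had a median of 0.31, it was 0.25.

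Eln and Fbln5 were lower while mural, endothelial and macrophage and leukocyte markers were lower too. Not every marker list ran that way. Of 8 committed preadipocyte markers, 4 had log2 fold changes above 0 and 4 below. Of 3 tested mesothelial markers, 1 was above 0 and 2 were below. All 5 tested Schwann markers were below 0, and 0 genes in any of these lists passed the threshold. The 12 pericyte and smooth muscle markers summed to 772 and 689 CPM in the Mmp3-negative and to 102 and 98.0 CPM in the Mmp3-positive libraries, and 11 of them had log2 fold changes below 0, with 0 past the threshold. Myh11, the smooth muscle myosin, stood at 187 ± 22.5 CPM against 7.45 ± 4.80 CPM (SD, n = 2), and Lmod1 had 0 counts in both Mmp3-positive libraries. The 10 endothelial markers summed to 268 and 203 CPM against 109 and 107 CPM, with 0 past the threshold, and the 10 macrophage and leukocyte markers to 267 and 175 CPM against 32.1 and 29.4 CPM, with 0 past the threshold. The part of these cells in the Eln and Fbln5 values was not tested. In such bulk samples fewer cells of a type and less RNA per cell cannot be told apart. Fbn1, Mfap5, Fbln2 and Efemp2 were higher beside the fibroblast markers, and a link between them was not tested either. Of these markers 10 of 10 had log2 fold changes above 0, with a median of 0.51 and 0 past the threshold. The median over all tested genes was 0.02. In CPM 7 of the 10 were higher in both Mmp3-positive libraries, as were 22.5% of all tested genes. Col1a1 (log2 fold change 0.10), Col1a2 (0.23) and Col3a1 (0.10) overlapped between the groups. Over the Dpp4-type progenitor markers, genes of an interstitial adipose progenitor, the sum was 1044 and 993 CPM against 1049 and 1229 CPM, and 0 of 9 passed (median 0.10 in log2). Its members ran in both directions. Dpp4 (log2 fold change -1.02), Pi16 (-0.40) and Cd55 (-1.24) were lower in both Mmp3-positive libraries, as were 17.3% of all tested genes. Cd248 (0.54) and Ly6a (0.52) were higher in both, as were 22.5% of all tested genes. Without Mmp3-negative replicate 2, edgeR called 5 of 12 mural markers, 0 of 10 endothelial and 2 of 10 macrophage and leukocyte markers lower, and 4 of 10 fibroblast markers higher, where 0.709% of all genes were called lower and 1.45% higher. DESeq2 on all 4 libraries called 7 of 12, 3 of 8 and 3 of 9 lower and 4 of 10 higher, where 4.18% of all genes were called lower and 5.46% higher. Of the fits that left out a library, the one without Mmp3-negative replicate 2 called the most genes in each direction. The fits without a Mmp3-positive library called far fewer genes in all. Marker calls were counted only in the fit without Mmp3-negative replicate 2, so they may not hold when a different library is left out.

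Ratios within a library do not depend on how libraries are scaled, and they were formed after the values were seen. Per 100 counts of Fbn1 there were 15.4 and 12.1 counts of Eln in the negative group and 5.20 and 7.06 in the positive group. For Fbln5 there were 2.32 and 1.39 counts against 0.365 and 0.612. Both ratios were lower in each Mmp3-positive library than in either Mmp3-negative one. For Efemp2 the order was the opposite, with 19.4 and 24.4 counts per 100 of Fbn1 against 28.8 and 32.3. The ratio of Mfap5 was nearer between groups but also without overlap, with 17.5 and 17.9 counts against 20.7 and 19.1. Fbln1 had 5.13 and 5.43 counts against 3.97 and 4.005. Fbln2 had 164 and 211 counts against 217 and 229, and Mfap4 had 0.294 and 1.91 against 0.238 and 0.136. These ratios did not overlap between the groups either, while those of Fbn2 and Mfap2 did. Separation was thus not particular to Eln, Fbln5 and Efemp2. No test was made on these ratios, since 2 libraries against 2 allow no exact permutation p below 0.333. How many ratios of other genes separate the groups was not counted.

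**Figure D2:**
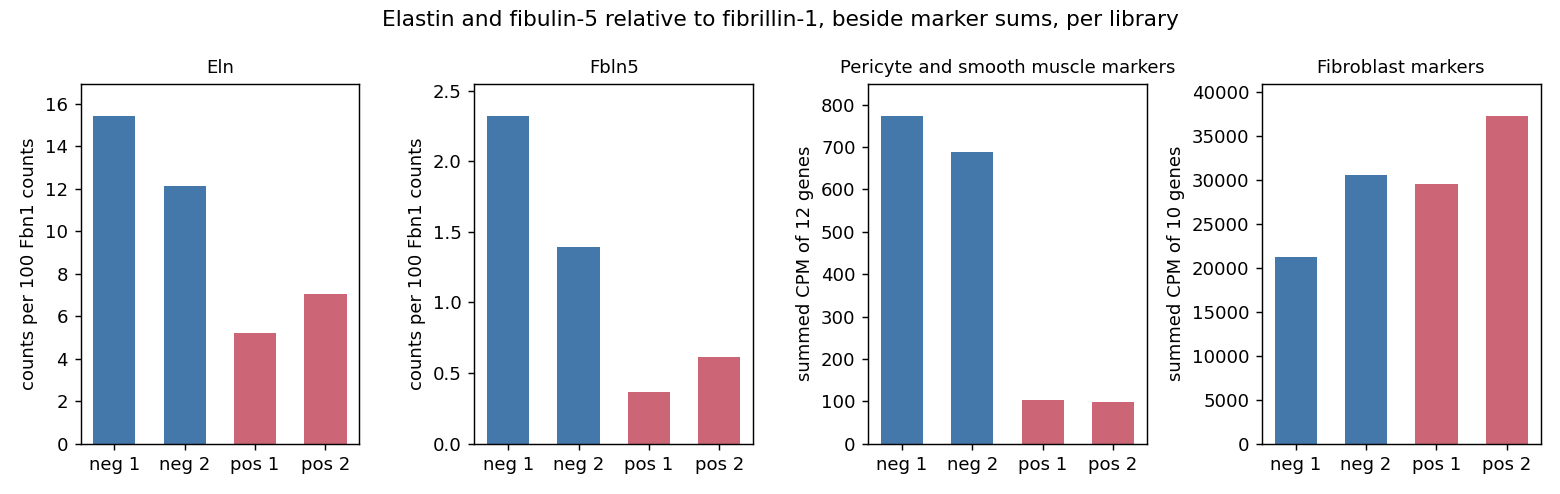
Counts of Eln and of Fbln5 per 100 counts of Fbn1, and the summed CPM of 12 pericyte and smooth muscle markers and of 10 fibroblast markers, as bars per library (neg, Mmp3-negative; pos, Mmp3-positive). The Eln and Fbln5 ratios and the mural sum are lower in both Mmp3-positive libraries, while the fibroblast sum of Mmp3-positive replicate 1 lies between those of the Mmp3-negative libraries.

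Levels of different genes were set beside each other in TPM, a scale that divides by transcript length and gives every library the same total. Fbln2 ranked first in all 4 libraries, with 386 and 924 TPM in the Mmp3-negative and 1021 and 989 TPM in the Mmp3-positive libraries. Efemp2 followed with 200 and 459 against 656 and 533 TPM, and Mfap5 with 202 and 389 against 446 and 358 TPM. These neighbours changed places in Mmp3-negative replicate 1, so their order there lies within the spread. The ranks count all transcripts of a gene, coding or not, and ranks over coding transcripts alone were not formed. Efemp2-212, a retained-intron transcript of 463 bases, held 15.6% and 21.6% of Efemp2 TPM in the Mmp3-negative libraries. In the Mmp3-positive libraries it held 39.2% and 19.2%. Efemp2-207, also a retained-intron transcript, held 16.2% and 34.2% against 5.64% and 13.5%. Fbn1 held rank 4 in every library, at 82.7 and 183 against 221 and 180 TPM, below Fbln2, Efemp2 and Mfap5. Eln held rank 5, at 37.0 and 54.0 against 23.1 and 31.2 TPM, except in Mmp3-positive replicate 1, where Fbln1 at 28.3 TPM stood above it. Fbln1 had 17.5 and 31.8 TPM in the Mmp3-negative libraries and 28.2 TPM in Mmp3-positive replicate 2. Fbln5, Mfap4, Fbn2 and Mfap2 did not exceed 21.9 TPM in any library.

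The 4 abundant genes made up 92.9% and 94.1% of the summed TPM of the 10 genes in the negative group and 97.5% and 96.2% in the Mmp3-positive libraries. Eln and Fbln5 together made up 5.06% and 3.07% against 1.08% and 1.74%. These 2 genes were thus a small share in every library, and smallest in the Mmp3-positive ones. Other members that act on elastin, such as Efemp2, are not in this pair. With all its transcripts counted, coding or not, the share of Efemp2 was 21.3% and 22.1% against 27.3% and 24.9%. The share of Fbn1 stayed between 8.42% and 9.20% in all 4 libraries. Summed over the 10 genes, TPM came to 936 and 2077 in the Mmp3-negative and 2404 and 2142 in the Mmp3-positive libraries. The mean was 1507 ± 807 TPM against 2273 ± 186 TPM (SD, n = 2; exact two-sided permutation p = 0.333, the smallest that 2 against 2 can give). The log2 ratio of 0.59 became 0.13 without Mmp3-negative replicate 1 and 1.28 without Mmp3-negative replicate 2. The low sum of Mmp3-negative replicate 1 stood beside 2 short pseudogenes, Gm12895 and Gm12896, which held 33.2% of all TPM in that library against 5.40%, 9.99% and 15.4% in the others. The median TPM of tested genes was 9.37 in that library and 13.6 to 16.03 in the others. In summed CPM the 10 genes came to 3459 and 4444 against 4672 and 5457.

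**Figure D3:**
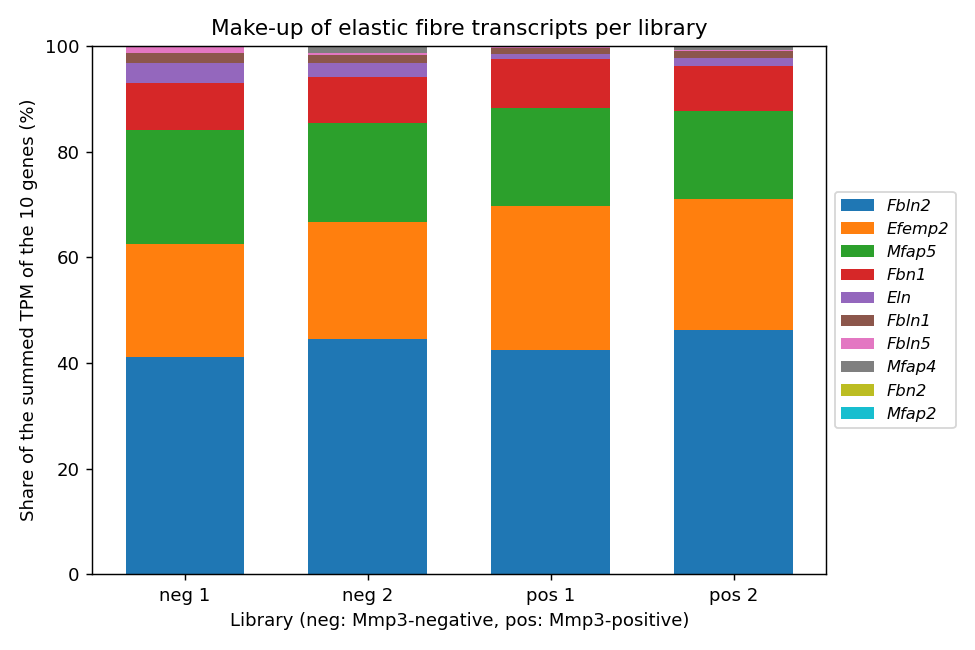
Share of each gene in the summed TPM of the 10 genes (vertical axis, percent) as stacked bars for the 4 libraries (neg, Mmp3-negative; pos, Mmp3-positive). Fbln2, Efemp2, Mfap5 and Fbn1 fill 92.9% to 97.5% of each bar, and the Eln band shrinks from 3.95% and 2.60% to 0.960% and 1.46%.

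The estimates per transcript add which forms of the fibulins were present. Fbln2 has 9 annotated transcripts, and the 2 that held most counts are coding. Fbln2-201 holds and Fbln2-202 skips an exon of 141 coding bases (chromosome 6, 91259630 to 91259770) in the stretch that encodes the EGF-like modules. The exon holds a whole number of codons. It is shown because the share of the longer form rests on reads over these bases and their junctions. The sequences are from GENCODE M21 on GRCm38, 5′ to 3′ on the plus strand, with the alternative exon in capitals and 30 bases of each neighbouring exon in lower case.
Fbln2-201: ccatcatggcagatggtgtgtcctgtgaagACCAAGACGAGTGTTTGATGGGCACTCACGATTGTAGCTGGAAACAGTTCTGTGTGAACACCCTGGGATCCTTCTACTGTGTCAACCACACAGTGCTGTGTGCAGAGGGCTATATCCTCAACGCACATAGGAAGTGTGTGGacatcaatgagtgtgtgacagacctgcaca
Fbln2-202: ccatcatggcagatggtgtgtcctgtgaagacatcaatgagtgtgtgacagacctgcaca

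Fbln2-202, which skips the exon, held most of the counts in every library: 22547 and 37281 in the Mmp3-negative and 41390 and 45793 in the Mmp3-positive libraries. Fbln2-201, which keeps it, held 8517 and 4287 against 7788 and 14705 counts. In TPM the form with the exon was 26.8% and 10.03% of the pair in the negative group and 15.4% and 23.7% in the Mmp3-positive libraries. The spread within the Mmp3-negative pair was larger than the distance between the group means of 18.4% and 19.6%. The groups therefore overlapped, and Fbln2 was mainly the form without the exon in both.

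Fbln1 has 2 coding transcripts that part ways at their 3′ end and so encode different C-termini. Fbln1-202 ends with an exon of 352 coding bases of its own (chromosome 15, 85251445 to 85251796), while Fbln1-201 goes on through 3 coding exons of its own, the first with 143 bases (chromosome 15, 85263259 to 85263401). The start of each branch is shown in capitals, 150 bases for Fbln1-202 and 143 for Fbln1-201, after the last 30 bases that both share in lower case, since the choice between them is what the shares count. The sequences are from GENCODE M21 on GRCm38, 5′ to 3′ on the plus strand.
Fbln1-202: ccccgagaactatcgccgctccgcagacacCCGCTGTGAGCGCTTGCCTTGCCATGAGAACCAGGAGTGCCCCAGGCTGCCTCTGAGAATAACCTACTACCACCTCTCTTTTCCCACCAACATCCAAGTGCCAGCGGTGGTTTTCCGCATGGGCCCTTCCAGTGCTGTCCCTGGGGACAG
Fbln1-201: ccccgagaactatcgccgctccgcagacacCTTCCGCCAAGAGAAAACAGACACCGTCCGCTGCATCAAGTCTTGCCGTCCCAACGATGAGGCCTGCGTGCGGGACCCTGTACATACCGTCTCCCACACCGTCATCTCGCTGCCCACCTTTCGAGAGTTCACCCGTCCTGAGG

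Fbln1-202 held 744 and 533 counts in the Mmp3-negative and 784 and 887 counts in the Mmp3-positive libraries. Fbln1-201 held 269 and 576 against 151 and 205 counts. In TPM, Fbln1-202 was 82.1% and 60.5% of the pair in the Mmp3-negative and 89.6% and 87.8% in the Mmp3-positive libraries. Both Mmp3-positive libraries lay above both Mmp3-negative ones, and the means were 71.3% ± 15.3 and 88.7% ± 1.29 (SD, n = 2). The difference was not tested, and the Mmp3-negative libraries differed from each other by more than the group means did. How many transcript pairs of other genes separate the groups was not counted. The summed Fbln1 level overlapped between the groups.

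**Figure D4:**
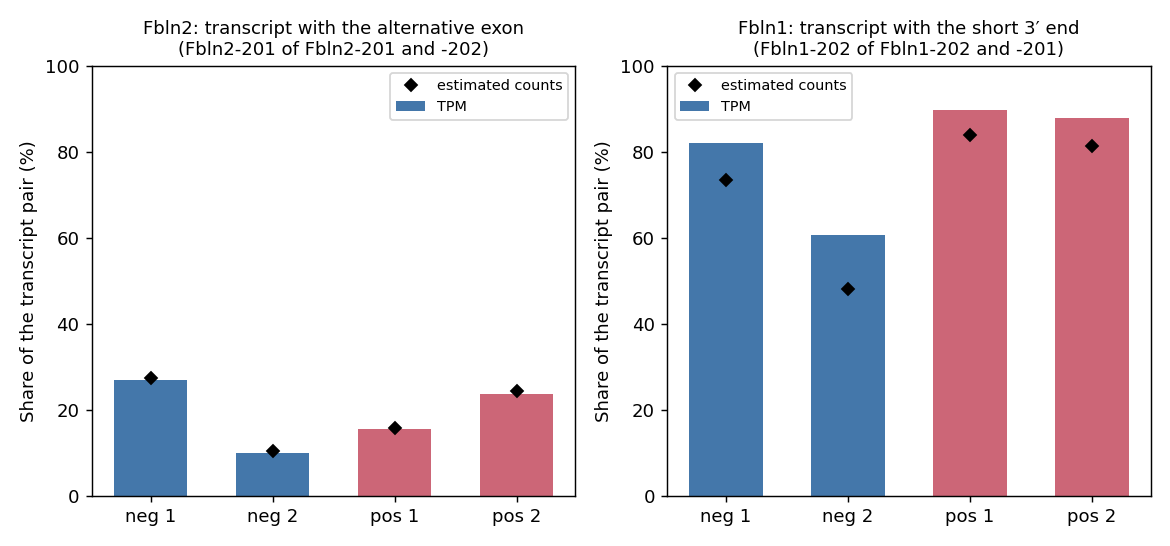
Share of a transcript in its pair (vertical axis, percent from 0 to 100) per library, for Fbln2-201 of Fbln2-201 and Fbln2-202 (left) and Fbln1-202 of Fbln1-202 and Fbln1-201 (right); bars are shares of TPM, diamonds shares of estimated counts. The Fbln2 shares of the groups overlap, and the Fbln1-202 share is 89.6% and 87.8% of TPM in the Mmp3-positive libraries.

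For the other genes the division among transcripts was less even between libraries. Efemp2 has 14 annotated transcripts, 10 of them coding, and its coding transcripts held 66.7% and 55.5% of its counts in the Mmp3-negative and 62.1% and 74.8% in the Mmp3-positive libraries, so a good part went to retained-intron and decay transcripts. Eln-201, the single coding Eln transcript, held 79.6% and 91.2% against 97.3% and 97.0%. Coding transcripts held 92.6% to 100% of the Fbn1 counts and 90.0% to 95.6% of the Mfap5 counts. With coding transcripts alone, the log2 fold change was -0.76 for Eln, 0.87 for Efemp2 and -3.13 for Fbln5, each without a call (edgeR adjusted p = 0.528, 0.461 and 0.9997).

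Genes that act beside the elastic fibre were taken as 6 lists of 46 genes in all, of which 38 were tested. None passed (0 of 38, edgeR), 8 had an unadjusted p under 0.05, and DESeq2 called 3 higher and 4 lower. Among all genes these shares were 8.87% at an unadjusted p under 0.05, and 5.46% and 4.18% by DESeq2. For each list the pair with the highest mean CPM is given, a scale that does not allow for gene length. Of the lysyl oxidases, which cross-link elastin and collagen, 0 of 5 passed, with a median log2 fold change of 0.14. Loxl1, the family member tied to elastic fibre upkeep, stood at 851 ± 15.5 CPM against 1189 ± 82.0 CPM (SD, n = 2; log2 fold change 0.48, edgeR adjusted p = 0.480), and Loxl3 had a log2 fold change of 0.24. DESeq2 called Loxl1 higher (adjusted p = 0.00114), but it was not called with the replicate block (edgeR adjusted p = 0.914). Of the latent TGF-beta binding proteins 0 of 4 passed, with a median of -0.06. Ltbp2 stood at 385 ± 65.4 CPM against 552 ± 83.2 CPM (SD, n = 2), a log2 fold change of 0.52, and Ltbp1 had -0.08.

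Of the emilins and ADAMTS-type proteins of microfibrils, 0 of 9 tested passed, with a median of 0.18. Emilin2 and Emilin1, glycoproteins at the elastin and microfibril interface, had log2 fold changes of 0.18 and 0.40. Adamtsl2, a microfibril-bound ADAMTS-like protein picked out after its values were seen, had 602 and 126 counts in the Mmp3-negative and 1 and 0 counts in the Mmp3-positive libraries (edgeR adjusted p = 0.480). It was called lower by DESeq2 (adjusted p = 1.41e-05), but not with the replicate block (edgeR adjusted p = 0.777). Of the other fibulins and hemicentins 0 of 4 passed, with a median of -0.48. Hmcn2, a large fibulin-related matrix protein, stood at 337 and 588 CPM in the Mmp3-negative and at 42.8 and 56.3 CPM in the Mmp3-positive libraries, with no overlap. Its log2 fold change was -3.22 (edgeR adjusted p = 0.181). It was called lower without Mmp3-negative replicate 2 (edgeR adjusted p = 0.000984), and over all alternatives the adjusted p ran from 1.49e-26 to 0.737. Efemp1, which encodes fibulin-3, had 0.63, with 39.2 and 28.9 CPM against 64.0 and 41.5 CPM. Thus the fibulin family members ran in both directions.

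Of proteases able to cut elastin, 0 of 8 tested passed, with a median of 0.12. The gelatinase Mmp2 and the membrane-bound Mmp14 had log2 fold changes of 0.32 and 0.20. Elane, the neutrophil elastase, had 0 counts in all 4 libraries. Cathepsin S (Ctss), an elastin-cutting enzyme of macrophages, was picked out after its values were seen, with 92.5 and 65.5 CPM against 12.5 and 4.63 CPM (log2 fold change -3.21, edgeR adjusted p = 0.480). DESeq2 called Ctss lower (adjusted p = 2.01e-07), but it was not called with the replicate block (edgeR adjusted p = 0.289). Over all alternatives its log2 fold change ran from -4.09 to -2.67. It stood beside the lower macrophage and leukocyte markers given above. Of the integrins that bind fibrillin, fibulin-5 or Mfap proteins, 0 of 8 tested passed, with a median of 0.32. Itga5 stood at 427 ± 28.0 CPM against 659 ± 28.0 CPM (SD, n = 2), a log2 fold change of 0.63 (edgeR adjusted p = 0.480), and Itgb1 had 0.21. DESeq2 called 2 of the 8 higher, Itga5 and Itgav, and 1 lower, Itga8. Among all genes it called 5.46% higher and 4.18% lower. Itga8, picked out after its values were seen, had 98 and 75 counts in the Mmp3-negative libraries. It had 0 counts in both Mmp3-positive libraries (edgeR adjusted p = 0.480).

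**Figure D5:**
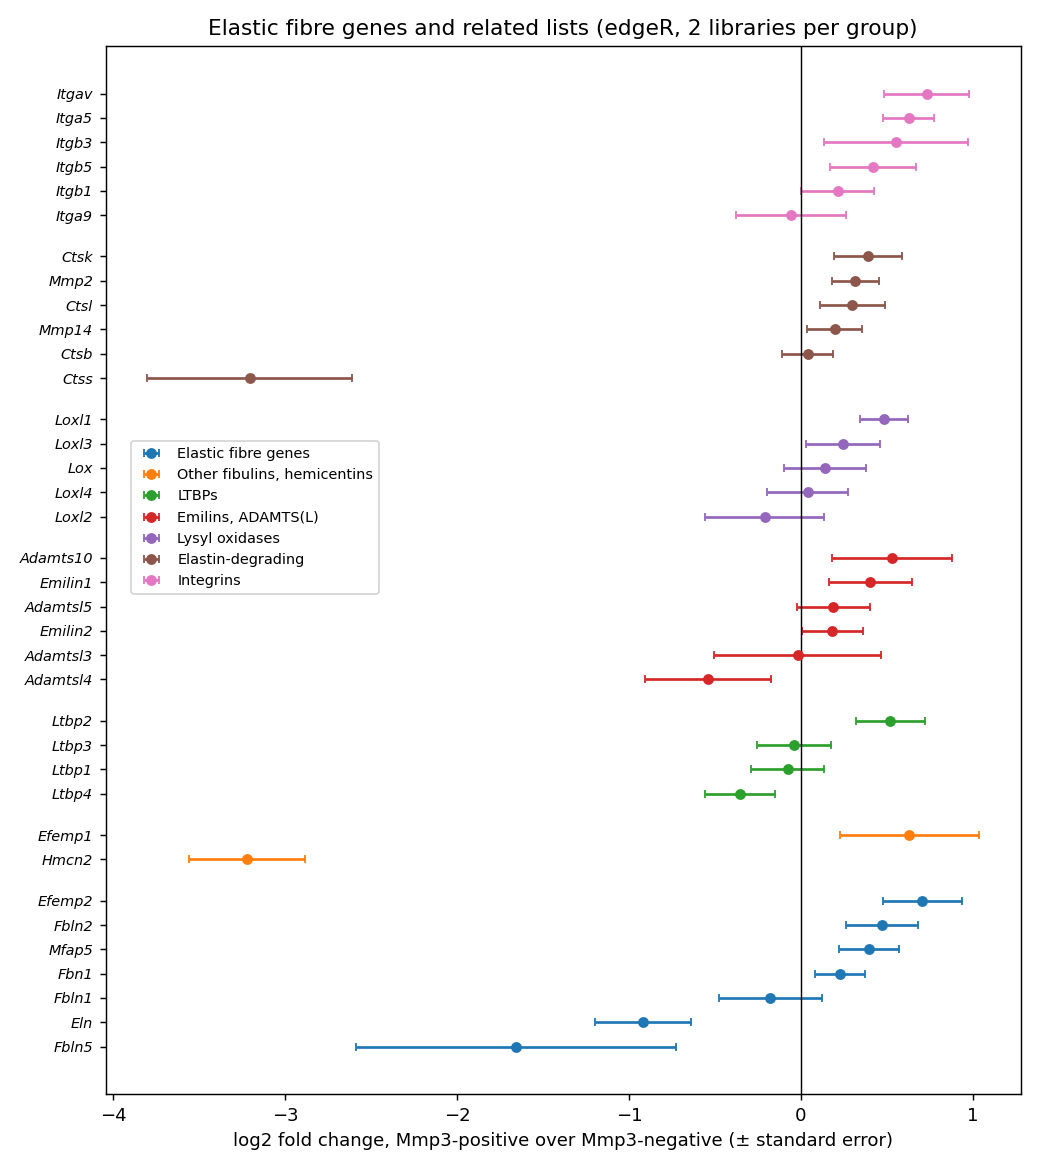
Log2 fold change of Mmp3-positive over Mmp3-negative cells (horizontal axis, bars are standard errors from edgeR) for 7 of the elastic fibre genes and the genes of the 6 related lists, coloured by list; 11 tested genes with a standard error of 1 or more are left out. Efemp2, Fbln2, Mfap5 and Fbn1 lie above 0 and Eln and Fbln5 below. Of the genes drawn, Hmcn2 and Ctss lie farthest to the left, while Adamtsl2 (-9.24) and Itga8 (-9.49) are among those left out.

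The genes whose values over the 4 libraries lay nearest to those of Fbln2, by the root mean square distance of centred log2(CPM + 1) among 9423 genes, were Lzts3 (0.0329), Sparc (0.0343), Mthfd1 (0.0352), Rassf8 (0.0434) and Bdh2 (0.0435). Sparc, which encodes a collagen-binding matrix protein, stood at 1480 and 1972 CPM against 2209 and 2556 CPM. For Mfap4, whose log2 fold change was the farthest from 0, they were Znhit3 (0.0811), Mtus2 (0.125), Ecm2 (0.176), Nr4a3 (0.213) and Pyroxd2 (0.254), each high in Mmp3-negative replicate 2 alone. With 4 libraries such likeness is a description.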

How the data were processed

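The submitters' processing notes name kallisto 0.45.0 and GRCm38; the transcript set, trimming and strand setting are not given in the sources used here. The deposited tables hold, per the file headers, an effective length, an estimated count and a TPM value for each of 115270 transcripts. Per the labels' protocols, RNA was extracted with a kit for fixed, paraffin-embedded material and libraries were strand-specific with rRNA depletion. Transcripts were matched by identifier without version to GENCODE M21 (113580 matches, 35580 genes), and the estimated counts of a gene's transcripts were added up and then rounded. Genes were kept by filterByExpr (minimum count 10), scaled by TMM and tested across all genes with edgeR 4.0.16 in R 4.3.3 (quasi-likelihood, two-sided, Benjamini-Hochberg, threshold 0.05, 2 residual degrees of freedom). Standard errors were obtained by dividing the absolute log2 fold change by the root of F. The members and lists were chosen with earlier results of these data known. Named genes were Mmp3, the members, up to 4 called genes or otherwise the 2 most abundant of each related list, and the 5 nearest genes (no predicted names, average logCPM of at least 3). Adamtsl2, Ctss, Itgav, Itga8, Myh11, Lmod1 and the named fibroblast and Dpp4-type progenitor markers were chosen after their values were seen. Adamtsl6 and Ela2a matched no gene. Alternatives were DESeq2 1.42.0 (size factors, Wald test), no count filter, the set number as a replicate block, a transcript length offset, coding genes or transcripts only, leaving out each library, and limma 3.58.1 on log2(TPM + 1) or log2(TPM + 0.1), at a TPM of at least 1 in 2 libraries or with no filter. A library left alone in its group was taken to vary like the other group. kallisto shares reads among similar transcripts, so transcript values are estimates. The edgeR script was tested on simulated data.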

Additional observations from a re-analysis of the deposited data

How the results depend on the processing

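Genes called higher and lower, 1 and 2 as reported, numbered 775 and 593 by DESeq2, 4 and 23 when genes were left unfiltered, 1 and 0 with the length offset or coding transcripts alone, 0 and 0 in each of the 3 limma fits, and, leaving out each library, 1 to 237 higher and 1 to 116 lower. Of the elastic fibre genes (0 and 0) DESeq2 called 1 and 1, and leaving out a library 0 to 1 and 0. Of the related genes (0 and 0) DESeq2 called 3 and 4, no count filter 0 and 2, and leaving out a library 0 and 0 to 3. With a replicate block on the set number, 4 genes in all were lower, among the related genes 1 was lower (Hmcn2, edgeR adjusted p = 0.0171), and the block changed no call of an elastic fibre gene; the correlation of same-numbered deviations was 0.0243 over 2 pairs.

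The median of the 9 genes (-0.18) was 0.23 under the block, 0.25 by limma on log2(TPM + 1), filtered or not, 0.38 at log2(TPM + 0.1), and -0.29 to 0.30 without a library. Over all genes the median was 0.02 as reported, 0.12 with the block, 0.31 by limma on log2(TPM + 1), 0.24 without its filter, 0.37 at log2(TPM + 0.1), and 0.17 without either Mmp3-negative library. Values that turned direction had no call: Fbn2 was 1.70 with the block and -2.74 to 9.68 without a library, Mfap4 was 0.20 with limma on log2(TPM + 1), filtered or not, and 0.38 with log2(TPM + 0.1), and Fbln1 was 0.014 with the length offset and 0.25, 0.25 and 0.26 in these limma fits. The cause of these differences was not tested. Eln, Fbln5, Fbn1, Mfap5, Fbln2 and Efemp2 had the reported direction under every alternative run. Fbn2, Mfap2, Mfap4 and Fbln5 held at most 619 counts in any library.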
